A study of Mus musculus with 12 samples.

Results

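The 31 genes described here encode enzymes that break down amino acids and the pyrimidine bases, and were chosen by gene symbol from known roles in these pathways. They are 31 of the 55450 genes in the tables, and all 31 had enough reads to be tested. mRNA was measured by RNA-Seq in 12 libraries labelled as primary mouse hepatocytes, 3 in each of 4 groups. KO hepatocytes carried the Cebpa{delta}Alb genotype, in which Cre recombinase driven by the albumin promoter deletes floxed Cebpa, and WT hepatocytes carried the floxed alleles alone (Cebpafl/fl). OE hepatocytes were given an adenovirus with mouse Cebpa (Ad-m-Cebpa) and GFP hepatocytes an adenovirus with green fluorescent protein (Ad-GFP). The study used male mice and crossed its floxed line to C57BL/6N, and gives an age for other hepatocyte assays, and a time and wild-type cells for other cultures given these viruses, but states none of these for the sequenced libraries. The libraries are numbered as biological replicates without saying whether they are separate mice or separate cultures. The p values may therefore measure only the spread between cultures and not that between mice.

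Hepatocytes are a main site of amino acid breakdown in mammals. Each pathway runs as a chain of enzymes that removes the amino group and turns the carbon skeleton into intermediates of glucose, ketone or one-carbon metabolism, and several chains also feed other products, such as NAD from tryptophan or cysteine from methionine. CEBPA is a leucine zipper transcription factor of differentiated hepatocytes and is known for the control of metabolic genes in the liver after birth.

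Levels are given either as TPM, which is corrected for gene length and used to set genes side by side, or as CPM, counts scaled by TMM to 1000000 per library, which is used to compare groups for 1 gene. Total counts were 20160081 to 23304230 per library. Cebpa, the targeted gene, was at 0.963, 0.257 and 0.164 CPM in KO, against 308.8, 229.3 and 290.3 CPM in WT. Its level was 13290, 13650 and 14080 CPM in OE, against 47.95, 50.62 and 54.33 CPM in GFP. The OE value includes transcripts of the virus, which cannot be told apart from those of the mouse gene. All 9 hepatocyte markers were above 0 TPM in each group. Their summed level was 89980 to 100300 TPM in KO and 78450 to 81700 TPM in WT. Most of it came from Alb, at 66130 to 73710 TPM in KO and 53680 to 55580 TPM in WT. In CPM, 1 of the 9 markers had all KO libraries above WT and 2 had them all below, and none was called. The sum was 11450 to 11780 TPM in OE and 19740 to 20330 TPM in GFP. Alb made up most of it here too, at 7408 to 7644 TPM in OE and 13740 to 14290 TPM in GFP. The markers did not all go one way, since 2 of the 9 were called higher in OE and 7 lower. Among all genes tested, 43.9% were called higher and 42.7% lower. The summed level of 10 macrophage markers was 12.5 to 38.4 TPM in KO and 3.11 to 21.3 TPM in WT. In OE and GFP the sum was 188 to 208 TPM and 174 to 197 TPM, nearly all of it from Cd68, and it was 3.22 to 3.9 TPM in OE and 0.86 to 1.52 TPM in GFP without Cd68, with Adgre1, Clec4f and Marco at 0 in GFP. The summed level of 10 inflammatory genes was 9993, 15090 and 518 TPM in KO and 340, 509 and 3016 TPM in WT, and 4402 to 4666 TPM in OE and 5532 to 5746 TPM in GFP. In these bulk libraries, fewer cells of a type and less RNA per cell cannot be told apart.

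The 31 genes took a summed 18530, 10630 and 11030 TPM in KO, against 18380, 14710 and 15530 TPM in WT. KO1 was just above the highest WT library and both other KO libraries were below all 3 WT libraries. In OE the sum was 1390, 1349 and 1358 TPM, against 886, 888 and 892 TPM in GFP, with no overlap. Bhmt, betaine-homocysteine methyltransferase, and Gnmt, glycine N-methyltransferase, had the highest mean TPM in KO and WT, followed by Tat in KO and Hpd in WT. The highest 3 genes made up 48.2% of the sum in KO and 48.6% in WT. The order was another one in the adenovirus groups, where Tdo2, Hal and Hgd led in OE with 36.6% of the sum and Gldc, Gpt and Got1 led in GFP with 33.4%.

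**Figure D1:**
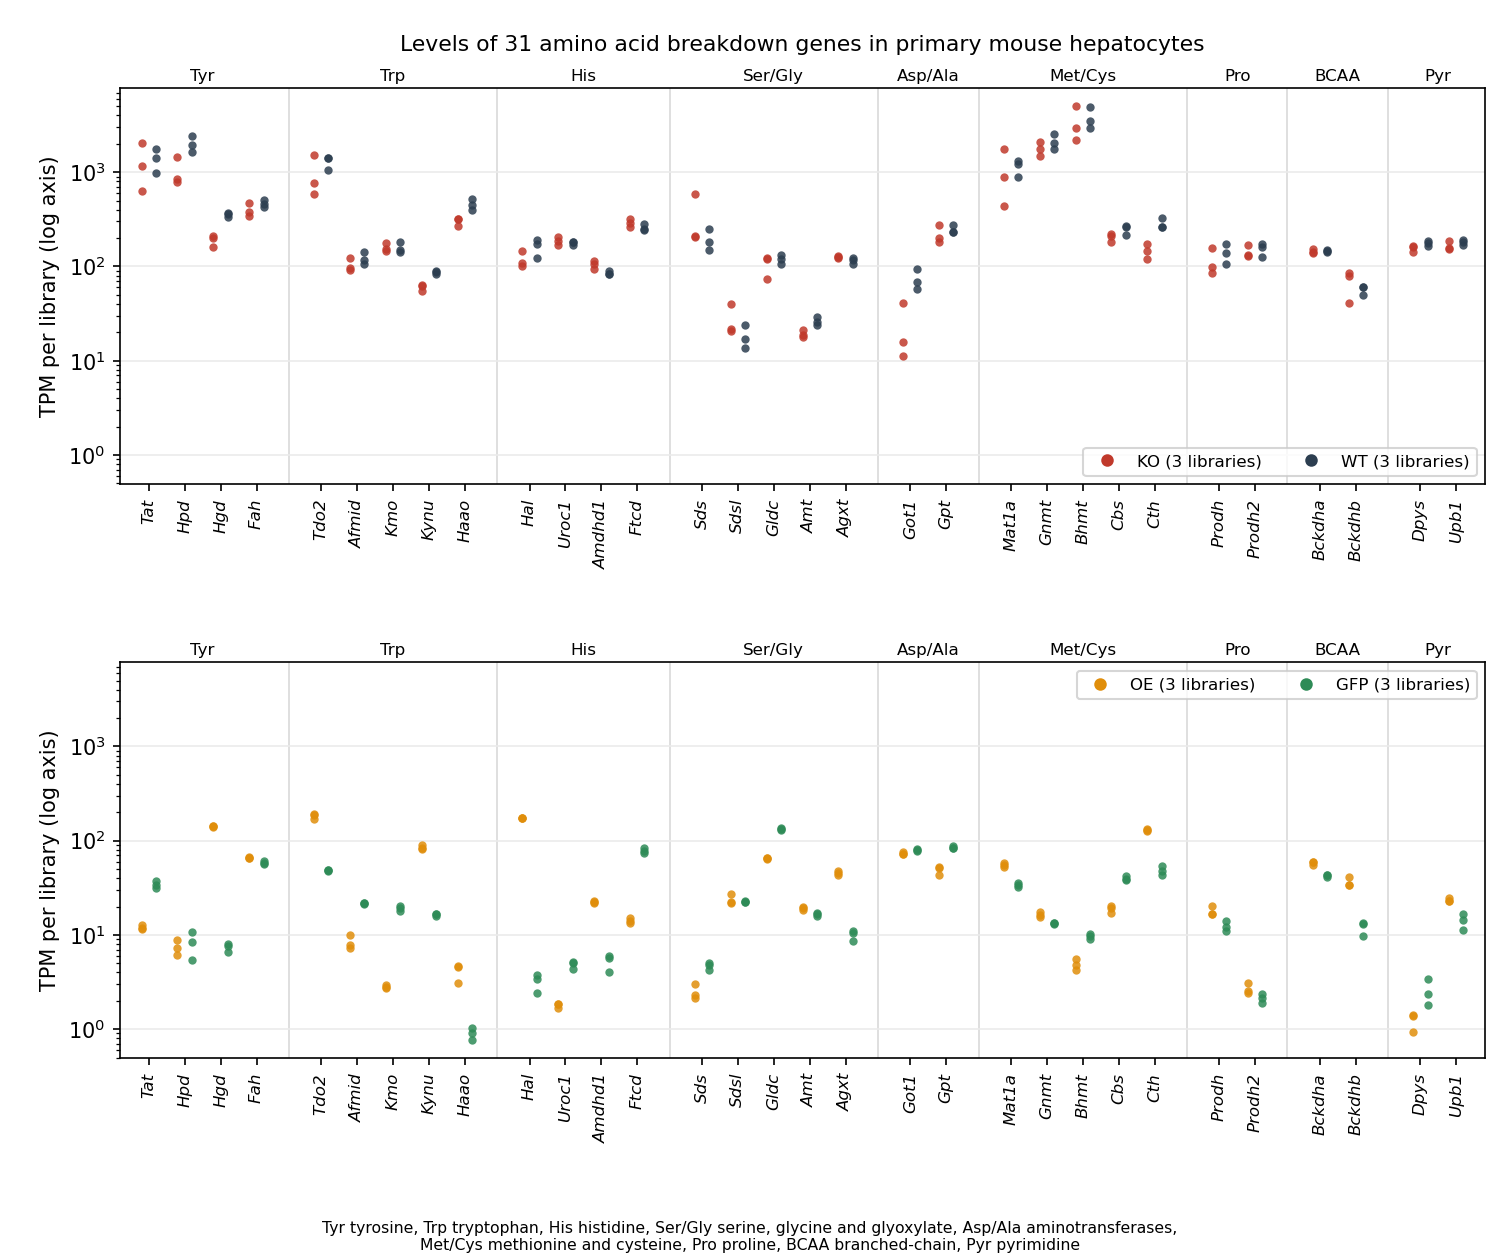
TPM of each of the 31 genes (vertical, log axis) in the KO and WT libraries (upper panel) and the OE and GFP libraries (lower panel), grouped by pathway, where each point is 1 library. The KO and WT points lie between 11.1 and 5013 TPM, and the OE and GFP points between 0.76 and 192 TPM.

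Most of these genes stood at a higher level in WT hepatocytes than in the hepatocytes given Ad-GFP. In TPM, 28 of the 31 genes had all 3 WT libraries above all 3 GFP libraries, and none had them all below. Of the 12688 genes with a mean of at least 1 TPM over these libraries, 13.0% had all WT libraries above and 77.8% had them all below. The median ratio of mean TPM in WT to mean TPM in GFP was 11.4, beside 0.348 over those 12688 genes. The ratio was over 10 for 17 of the 31 genes, against 3.01% of the 12688, and over 100 for 4. These 4 were Haao, Bhmt, Hpd and Gnmt, chosen here after their values were seen, with ratios of 502, 391, 242 and 158. Sdsl, Gldc and Got1 were the genes without such a gap, with means of 18.2, 120 and 73.3 TPM in WT and 22.6, 133 and 79.1 TPM in GFP. No test was made between WT and GFP, whose difference in experiment, culture and virus cannot be told apart.

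In KO against WT, none of the 31 genes was called higher and 2 were called lower, Hgd and Cth, at an adjusted p under 0.05 in edgeR's quasi-likelihood test. Over all 11846 genes tested, 0.692% were called higher and 1.02% were called lower. At an unadjusted p under 0.05, 1 of the 31 genes was higher and 8 were lower, against 6.78% and 7.10% of all genes tested. DESeq2 called 0 higher and 7 lower, against 1.92% and 2.32% of the 14745 genes it gave an adjusted p. All 3 KO libraries were above all 3 WT libraries for 3 genes, against 9.66% of all genes tested, and below them for 8 genes, against 10.4%. The median log2 fold change of the 31 genes was −0.13, beside 0.01 over all genes tested. Of 72 other tested genes of these pathways and of lysine breakdown, none was called by edgeR in either direction, 3 were higher and 8 lower at an unadjusted p under 0.05, and DESeq2 called 1 higher and 5 lower.

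Hgd encodes homogentisate dioxygenase, which opens the aromatic ring in tyrosine breakdown. It was at 236, 182 and 216 CPM in KO, against 395, 401 and 356 CPM in WT. The groups did not overlap, and Hgd was 1.81-fold lower in KO (log2 fold change −0.86 ± 0.13, SE, adjusted p = 0.0280). The call was kept in 10 of 15 alternatives, and was lost in the replicate block and without KO2, WT1, WT2 or WT3, with an adjusted p of up to 0.136. Cth encodes cystathionine gamma-lyase, which releases cysteine from cystathionine. It was at 207, 147 and 172 CPM in KO, against 372, 316 and 301 CPM in WT. These groups did not overlap either, and Cth was 1.88-fold lower in KO (log2 fold change −0.91 ± 0.16, SE, adjusted p = 0.0415). The call for Cth was kept in 6 of 15 alternatives, and was lost under a stricter filter, in both limma fits on TPM, in the replicate block and without KO2, KO3, WT1, WT2 or WT3, with an adjusted p of up to 0.172.

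Got1, cytosolic aspartate aminotransferase, had the largest difference of the 31 in KO without passing the test. It was at 57.3, 22.4 and 14.5 CPM in KO, against 88.6, 81.8 and 122.5 CPM in WT (log2 fold change −1.64 ± 0.48, SE, adjusted p = 0.189). The KO libraries were all below WT, and KO1 lay closer to the lowest WT library than to KO3. Hpd, which makes homogentisate one step before Hgd acts, was at 1248, 703 and 704 CPM in KO and 1979, 1424 and 1593 CPM in WT (log2 fold change −0.91 ± 0.26, adjusted p = 0.177). Got1 and Hpd were called lower, with Hgd and Cth, in the fit without KO1, with adjusted p values of 0.0254 and 0.0445. Kynu, Haao and Amt also had all KO libraries below all WT libraries, by −0.50 ± 0.10 (adjusted p = 0.0771), −0.54 ± 0.13 (adjusted p = 0.120) and −0.46 ± 0.10 (adjusted p = 0.101) on the log2 scale. Dpys had the same order with a log2 fold change of −0.13 ± 0.09. The 3 genes with all KO libraries above WT were Amdhd1, Agxt and Uroc1, which differed by 0.33 ± 0.11, 0.17 ± 0.10 and 0.13 ± 0.11 on the log2 scale with adjusted p at 0.223 or above.

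The KO libraries differed among themselves in these genes. KO1 was the highest of the 3 KO libraries for 23 of the 31 genes, against 29.6% of all genes tested. KO3 was the lowest for 16 genes and KO2 for 13, against 35.1% and 32.2% of all genes tested. Mat1a, the liver enzyme that makes S-adenosylmethionine from methionine, was at 3933, 2064 and 958 CPM in KO and 2802, 1991 and 2551 CPM in WT. Tat, tyrosine aminotransferase, which starts tyrosine breakdown, was at 3355, 1979 and 1013 CPM in KO and 1538, 2353 and 2734 CPM in WT. For both, KO1 lay above all WT libraries and KO3 below them, so that the log2 fold changes were −0.08 ± 0.45 and −0.06 ± 0.42. Sds, serine dehydratase, was at 414, 145 and 140 CPM in KO and 120, 102 and 167 CPM in WT, where KO1 alone stood above WT (log2 fold change 0.85 ± 0.44, adjusted p = 0.445, and 0.13 without KO1). Without KO1 the median log2 fold change of the 31 genes was −0.32 and 4 were called lower, and without KO3 it was −0.03 and 1 was called lower, which was Hgd. KO1 and KO2 had the high inflammatory sums given above and KO3 the low one, and their part in these levels was not tested.

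**Figure D2:**
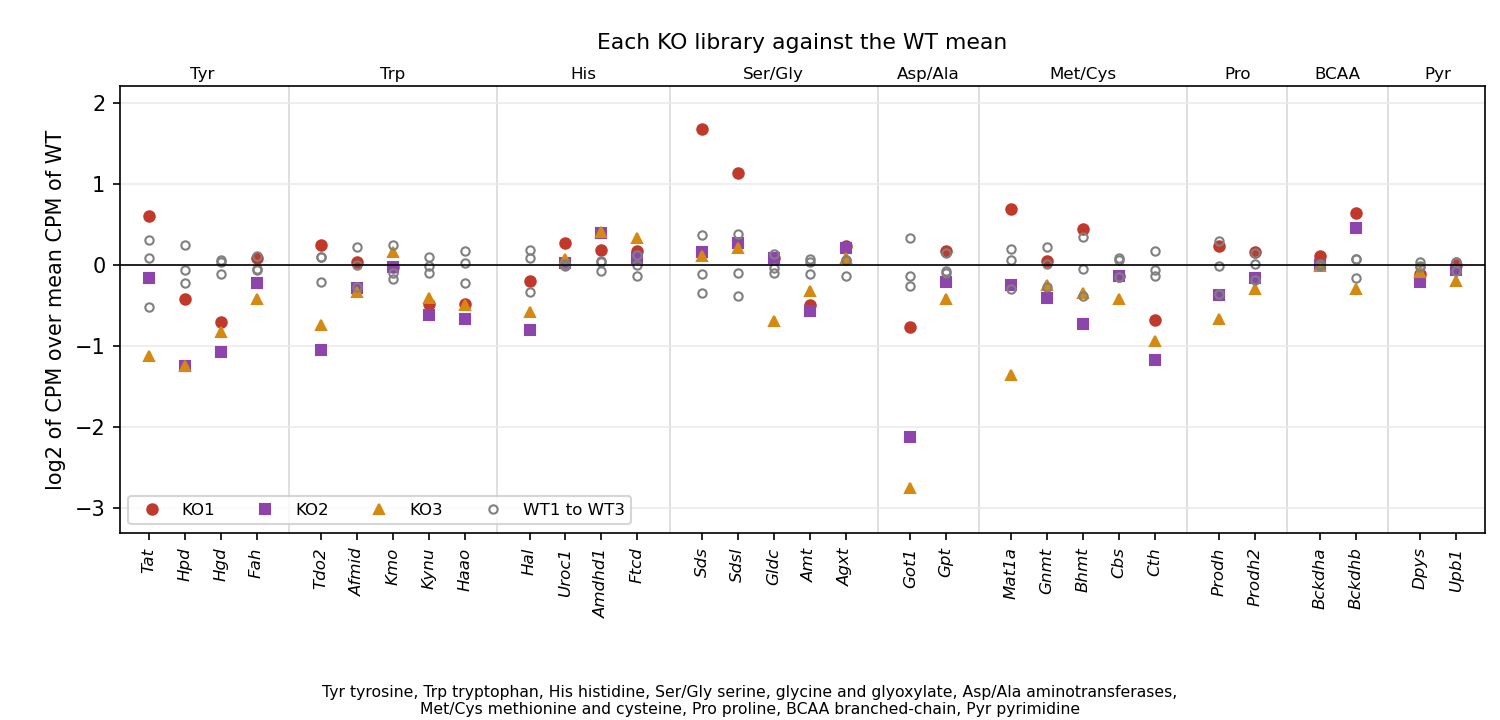
Log2 of the CPM in each library over the mean CPM of WT (vertical) for the 31 genes grouped by pathway (horizontal), with 1 symbol for each KO library and open circles for the WT libraries. KO1 is the highest KO library for 23 of 31 genes, and for Hgd, Cth and Got1 all 3 KO symbols lie below all WT circles.

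OE and GFP differed far more than KO and WT, with 43.9% of the 14889 genes tested called higher in OE and 42.7% called lower. Among the 31 genes 12 were called higher, 13 were called lower and 6 were not called, which is 38.7% higher and 41.9% lower, near the shares of all genes. The same 12 had all OE libraries above all GFP libraries, against 44.1% of all genes tested, and the same 13 had them all below, against 42.9%. The log2 fold changes ran between −3.08 and 6.07 with a median of −0.06, beside 0.01 over all genes, and 20 of the 31 genes were called and over 2-fold, against 42.0% of all genes tested. The common biological coefficient of variation was 4.04% in these libraries and 20.4% in KO and WT, so a call in OE can rest on a much smaller difference. Of the called genes, Fah, Bckdha, Upb1, Mat1a and Got1 differed by less than 1.5-fold. Of 74 other tested genes of these pathways and of lysine breakdown, 24 were called higher and 44 lower, with a median log2 fold change of −0.36, and both limma fits on TPM called 30 higher and 36 lower.

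**Figure D3:**
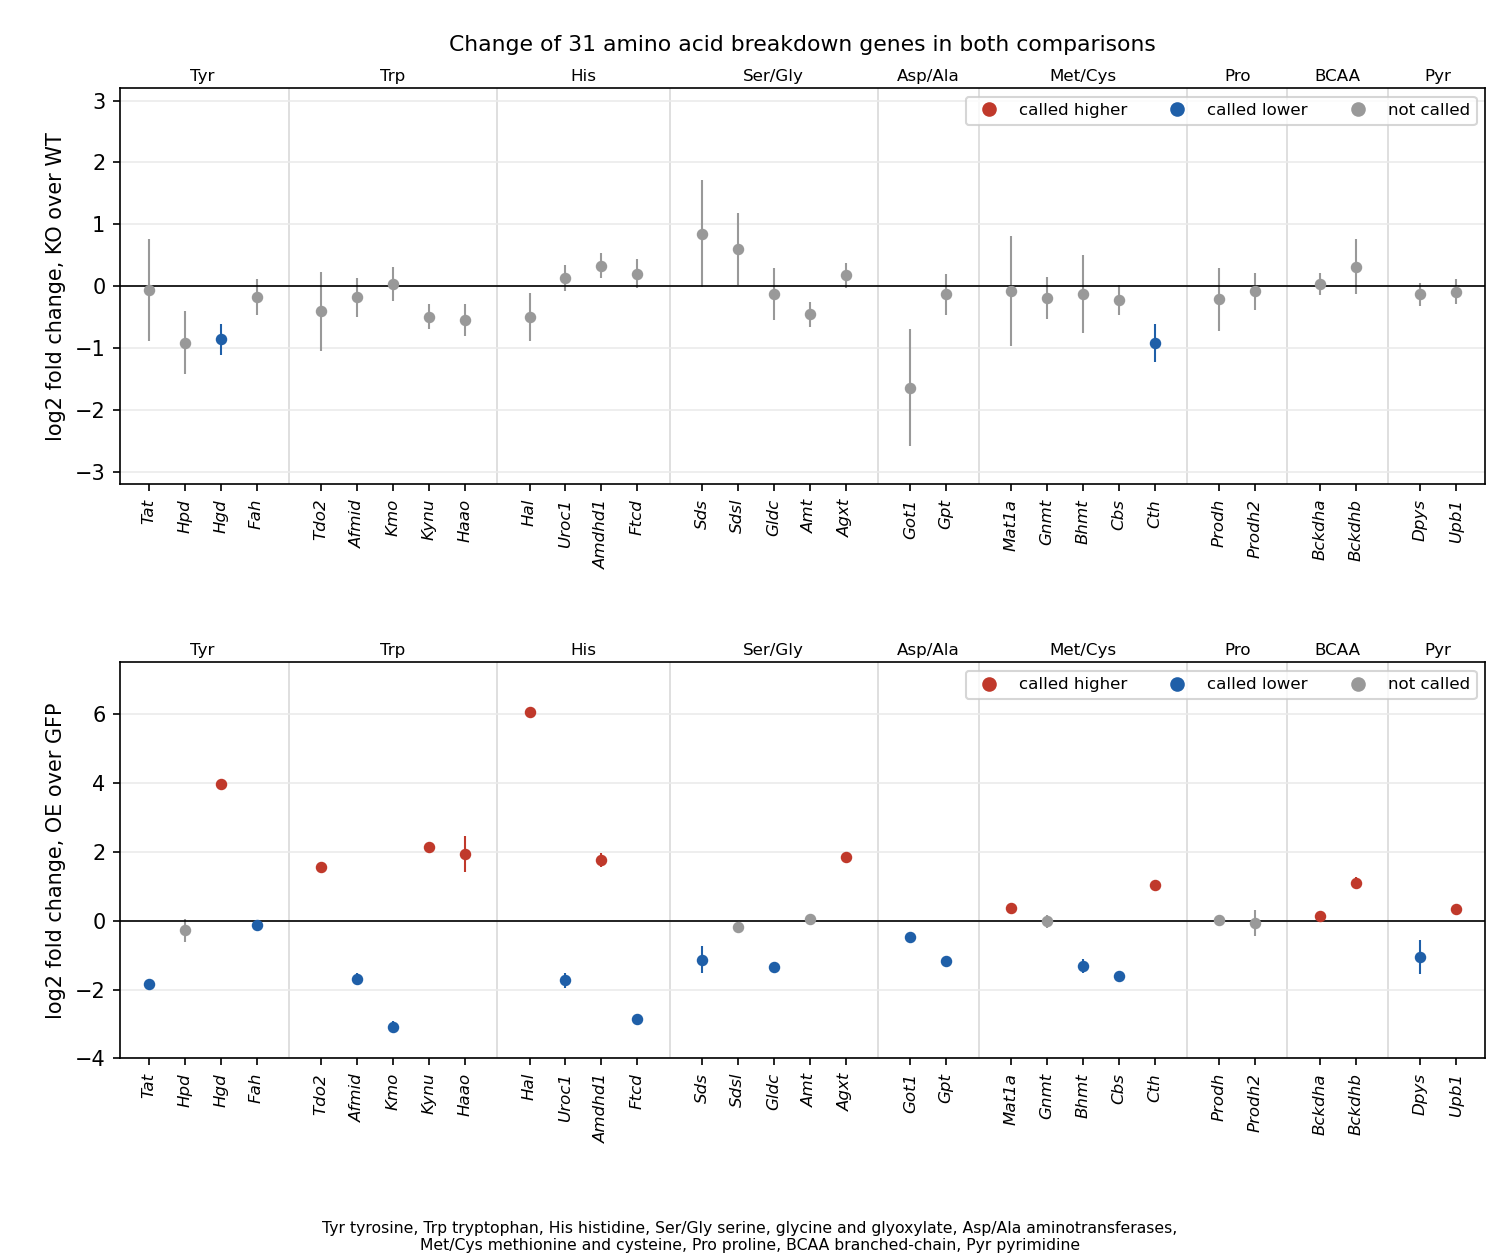
Log2 fold change of the 31 genes in KO over WT (upper panel) and OE over GFP (lower panel), grouped by pathway, where bars are 95% intervals and colour gives the call in edgeR (n = 3 libraries a group). Hgd and Cth are called lower in KO and higher in OE, and the small fall of Fah in OE becomes a rise in TPM.

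Hal and Hgd had the largest rises in OE and were also members whose promoter held a match to the C/EBP half-site pair searched for, so both promoters are shown. The motif was TTNNGCAA, whose reverse complement is TTGCNNAA. Both were searched, with overlapping matches allowed, in the 250 bases before the transcription start in RefSeq on GRCm38.p6, the patch release of mm10. Promoters were found for 24 of the 31 genes, 25 in all, and 3 of these held a match, 12%, against 9.56% of 32851 RefSeq promoters. The third was that of Prodh2, which was called in neither comparison and is not shown, since its window overlaps an exon of the gene. No match was found for Ftcd, Gldc, Kmo or Tdo2, which came next by p in OE among the genes with a promoter. Kynu and Cth had no promoter to search. The windows are written 5′ to 3′ on the plus strand with the match in capitals. That of Hal is chr10:93488518-93488767, with the match starting 150 bases before the start, and that of Hgd is chr16:37579903-37580152, with the match starting 49 bases before it.
Hal: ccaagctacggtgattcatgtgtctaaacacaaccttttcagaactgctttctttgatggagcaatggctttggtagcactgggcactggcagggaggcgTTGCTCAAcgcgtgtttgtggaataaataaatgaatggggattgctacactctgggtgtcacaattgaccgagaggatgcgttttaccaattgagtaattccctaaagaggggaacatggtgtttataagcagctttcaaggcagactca
Hgd: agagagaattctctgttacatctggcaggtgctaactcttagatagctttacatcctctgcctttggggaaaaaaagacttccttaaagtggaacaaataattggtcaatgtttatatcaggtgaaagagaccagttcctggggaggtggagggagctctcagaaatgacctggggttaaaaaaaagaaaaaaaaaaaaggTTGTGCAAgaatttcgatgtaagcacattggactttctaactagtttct
A match is a run of letters and not a measured binding site.

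In the histidine pathway Hal rose, and the genes for the enzymes after it went both ways. Hal (ENSMUSG00000020017.14, chromosome 10, 93488768 to 93519304, plus strand, mm10) encodes histidine ammonia-lyase, which removes the amino group to give urocanate. It was at 232, 234 and 222 CPM in OE, against 2.83, 3.95 and 3.39 CPM in GFP. No GFP library came near the OE range, and Hal rose 67.3-fold (log2 fold change 6.07 ± 0.06, adjusted p = 6.72e-18), the largest change of the 31. In TPM, Hal averaged 174 in OE, beside 119 in KO and 163 in WT. Uroc1, urocanate hydratase, the next enzyme, was at 2.97, 3.23 and 3.24 CPM in OE and 11, 9.4 and 11.1 CPM in GFP, a fall of 3.33-fold. Amdhd1 encodes imidazolonepropionase, the third step. It was at 26.7, 27.8 and 26.7 CPM in OE and 9.14, 6.16 and 8.63 CPM in GFP, a rise of 3.40-fold. Amdhd1 lies on the opposite strand with its end 4033 bases from the end of Hal. Ftcd, formimidoyltransferase cyclodeaminase, which passes the last carbon to tetrahydrofolate, was at 13.3, 15.0 and 14.1 CPM in OE and 103, 109 and 97.1 CPM in GFP, a fall of 7.31-fold. None of the 4 genes overlapped between the groups. Most genes tested did not overlap either, with 44.1% having all OE libraries above GFP and 42.9% all below. The folate enzymes Aldh1l1 (log2 fold change −2.65 ± 0.04) and Mthfd1 (−0.76 ± 0.05), which act on the one-carbon units released, fell, and the other of 3 further genes was not called.

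In the tyrosine pathway Hgd stood apart from the enzymes before and after it. Hgd (ENSMUSG00000022821.13, chromosome 16, 37580153 to 37632020, plus strand) was at 119, 119 and 113 CPM in OE, against 7.21, 8.27 and 6.73 CPM in GFP. The groups were far apart, and Hgd rose 15.7-fold (log2 fold change 3.98 ± 0.06, adjusted p = 2.13e-16). Hgd was also 1 of the 2 genes called in KO, where it was lower. Tat was at 13.4, 14.6 and 14.0 CPM in OE and 54.0, 46.7 and 50.1 CPM in GFP, a fall of 3.59-fold. Hpd, 4-hydroxyphenylpyruvate dioxygenase, between Tat and Hgd, was at 4.79, 4.04 and 5.59 CPM in OE and 4.37, 6.34 and 6.78 CPM in GFP, ranges that overlapped, and was not called (log2 fold change −0.28 ± 0.17, adjusted p = 0.135, with an adjusted p of 0.0118 without GFP1). Its overlapping neighbour on the same strand, Gm26745, was listed at 0 in all libraries. In TPM, Hpd averaged 7.38 in OE and 8.24 in GFP, against 1027 in KO and 1990 in WT. Fah, fumarylacetoacetate hydrolase, the last enzyme, was at 51.0, 50.5 and 50.3 CPM in OE and 53.9, 55.2 and 58.0 CPM in GFP, a called log2 fold change of −0.14 ± 0.04 (adjusted p = 0.00686) that turned to 0.18 (adjusted p = 0.00477) in limma on log2(TPM + 1), so that its direction depends on the scaling. Of 7 other genes of the pathway 3 rose and 4 fell. Gstz1, the isomerase before Fah, rose by 0.56 on the log2 scale, and Pcbd1, which helps to recycle tetrahydrobiopterin, fell by 0.98.

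In the tryptophan pathway, which leads through kynurenine towards NAD, all 5 genes were called, 3 higher and 2 lower. Most genes tested were called too, 43.9% higher and 42.7% lower. Tdo2, tryptophan dioxygenase, the first enzyme, was at 190, 178 and 171 CPM in OE and 61.6, 57.9 and 64.1 CPM in GFP, a rise of 2.94-fold that made it the gene of the 31 with the highest mean TPM in OE. Afmid, the formamidase that yields kynurenine, was at 9.04, 10.8 and 8.22 CPM in OE and 30.4, 30.6 and 29.8 CPM in GFP, a fall of 3.23-fold. Both genes had separate ranges in the 2 groups, beside 44.1% of all genes tested with OE libraries all above GFP and 42.9% all below. Afmid shares its strand with the overlapping gene Gm20708, which was at 0 to 0.88 TPM in OE and 0.57 to 0.69 TPM in GFP, so that reads of the pair could have been split between them. Kmo, kynurenine 3-monooxygenase, was at 4.09, 3.82 and 3.67 CPM in OE and 32.5, 30.7 and 34.7 CPM in GFP, a fall of 8.44-fold (log2 fold change −3.08 ± 0.08, adjusted p = 7.84e-14) and the largest of the 31. Kynu, kynureninase, which acts on kynurenine and on the product of Kmo, moved the other way. It was at 98.4, 89.6 and 87.9 CPM in OE and 21.6, 20.1 and 20.8 CPM in GFP, a rise of 4.41-fold. Haao, 3-hydroxyanthranilate dioxygenase, rose 3.83-fold but at a low level, 2.52, 2.29 and 2.21 CPM in OE and 0.894, 0.517 and 0.411 CPM in GFP. Its mean of 4.13 TPM in OE compares with 303 TPM in KO and 453 TPM in WT. Of the 6 other genes tested 1 rose and 5 fell, among them Qprt, which carries the pathway on to NAD (−2.76 ± 0.07), Acmsd, which diverts it from NAD (−2.88 ± 0.09), and the aminotransferase Aadat (−1.81 ± 0.10).

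Of the 5 genes of serine, glycine and glyoxylate breakdown 1 rose, 2 fell and 2 were not called. The shares of all genes tested were 43.9% called higher and 42.7% called lower. Agxt encodes the peroxisomal aminotransferase that turns glyoxylate into glycine. It was at 32.1, 34.3 and 35.3 CPM in OE and 8.2, 10.3 and 9.65 CPM in GFP, a rise of 3.60-fold. Gldc, the decarboxylase of the glycine cleavage system, was at 130, 128 and 124 CPM in OE and 329, 313 and 336 CPM in GFP, a fall of 2.56-fold. Neither gene overlapped between the groups, beside 44.1% of all genes tested with OE libraries all above GFP and 42.9% all below. Amt, the aminomethyltransferase of the same system, was not called, at 20.2, 18.9 and 19.7 CPM in OE and 18.5, 18.8 and 19.2 CPM in GFP (log2 fold change 0.06 ± 0.06). The ranges of Amt overlapped, and the interval of its difference ran between −0.06 and 0.18. Amt was called higher with library totals, at 0.20 (adjusted p = 0.00787), and in both limma fits on TPM, at 0.21 and 0.22 (adjusted p = 0.011 in each). Sds was low in both groups, at 1.2, 1.3 and 1.64 CPM in OE and 2.98, 3.34 and 2.72 CPM in GFP, a fall of 2.19-fold that was not called in the fit of all 12 libraries (adjusted p = 0.0752). Its neighbour and relative Sdsl, 3715 bases away on the other strand, was at 13.7, 14 and 16.7 CPM in OE and 16.9, 16.5 and 16.8 CPM in GFP and was not called (log2 fold change −0.18 ± 0.08, adjusted p = 0.0511, with an adjusted p of 0.00461 without OE3). Sds and Sdsl changed places between the cultures, since Sds averaged 334 TPM in KO and 194 TPM in WT, where Sdsl averaged 27.4 and 18.2 TPM, but 2.48 TPM in OE and 4.68 TPM in GFP, where Sdsl averaged 23.8 and 22.6 TPM. Of the 9 other genes tested 2 rose and 6 fell, with Glyctk, glycerate kinase, at −2.89 ± 0.05, Shmt2, the mitochondrial serine hydroxymethyltransferase, at −1.58 ± 0.05 and Hao1, glycolate oxidase, which makes glyoxylate, at 1.74 ± 0.07.

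The cytosolic aminotransferases fell, where 42.7% of all genes tested were called lower. Gpt, alanine aminotransferase, was at 42.4, 42.7 and 37.7 CPM in OE and 95.3, 91.3 and 90.7 CPM in GFP, a fall of 2.26-fold. Got1 was at 69.3, 72.2 and 69.2 CPM in OE and 101, 96.0 and 96.3 CPM in GFP, a fall of 1.39-fold, and was not called in the fit of all 12 libraries (adjusted p = 0.259). Both had OE libraries below all GFP libraries, as for 42.9% of all genes tested. Their mitochondrial counterparts Gpt2 (−2.57 ± 0.04) and Got2 (−0.86 ± 0.03) fell as well, while Oat, ornithine aminotransferase, rose by 2.69 ± 0.06. In all, 3 of 6 other genes of the group rose and 2 fell.

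Of the 5 genes of methionine and cysteine metabolism 2 rose, 2 fell and 1 was not called, beside 43.9% of all genes tested called higher and 42.7% lower. Cth (ENSMUSG00000028179.12, chromosome 3, 157894248 to 157925077, minus strand) was at 113, 106 and 108 CPM in OE and 59.4, 51.8 and 48.4 CPM in GFP. The ranges were apart, and Cth rose 2.05-fold (log2 fold change 1.04 ± 0.06, adjusted p = 2.62e-10), where in KO it was called lower. Cth overlaps Gm43314 on the same strand, which was at 0.33 to 0.48 TPM in OE and 0.07 to 0.22 TPM in GFP, and at 0.65 to 1.78 TPM in KO and 1.81 to 3.26 TPM in WT. Cbs, cystathionine beta-synthase, which acts just before Cth, was at 17.9, 20.4 and 17.8 CPM in OE and 59.5, 53.2 and 58.1 CPM in GFP, a fall of 3.04-fold. Bhmt, which returns homocysteine to methionine, was at 7.06, 6.07 and 5.31 CPM in OE and 16.2, 14.3 and 15.3 CPM in GFP, a fall of 2.47-fold. Both falls were without overlap, as for 42.9% of all genes tested. Mat1a was at 90.5, 86.0 and 79.5 CPM in OE and 67.4, 63.0 and 67.3 CPM in GFP, a rise of 1.30-fold that was not called in the fit of all 12 libraries (adjusted p = 0.35). Gnmt, which uses up S-adenosylmethionine, was at 7.14, 8.13 and 7.38 CPM in OE and 7.9, 7.61 and 7.45 CPM in GFP and was not called (log2 fold change −0.02 ± 0.10), though it was called higher in limma on log2(TPM + 1), at 0.28 (adjusted p = 0.00456). Of 14 other genes 4 rose and 10 fell, with Cdo1, cysteine dioxygenase, at −1.59 ± 0.05, Ethe1, which oxidises persulfides in mitochondria, at −1.29 ± 0.04 and Csad, which makes hypotaurine, at −2.59 ± 0.09.

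Among the smaller groups, both branched-chain genes of the 31 rose and both proline genes were not called. Among all genes tested, 43.9% were called higher and 42.7% lower. Bckdhb and Bckdha encode the E1 subunits of the branched-chain ketoacid dehydrogenase, the committed step of valine, leucine and isoleucine breakdown. Bckdhb was at 18.8, 16.4 and 18.1 CPM in OE and 7.95, 8.6 and 8.27 CPM in GFP, a rise of 2.15-fold. Bckdha was at 55.9, 52.2 and 54.2 CPM in OE and 51.3, 47.6 and 50.3 CPM in GFP, a rise of 1.09-fold (log2 fold change 0.12 ± 0.05, adjusted p = 0.0215) that was lost without OE1 or GFP2, with an adjusted p of up to 0.150, and in the fit of all 12 libraries. The OE libraries of both genes were above all GFP libraries, as for 44.1% of all genes tested, by a narrow margin for Bckdha. Of 19 other branched-chain genes tested 10 rose and 7 fell. Dbt, the E2 subunit of the same complex, rose by 1.85 ± 0.04, Acadsb, which dehydrogenates the isoleucine product, by 2.12 ± 0.05 and Pcca, a subunit of propionyl-CoA carboxylase, by 2.22 ± 0.07.

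Prodh, proline dehydrogenase, was at 16.6, 16.2 and 18.2 CPM in OE and 15.9, 18.1 and 16.3 CPM in GFP, and Prodh2, hydroxyproline dehydrogenase, was at 2.19, 1.75 and 1.97 CPM in OE and 2.09, 1.93 and 2.16 CPM in GFP. The ranges overlapped for both, with intervals of the log2 fold change of −0.13 to 0.16 for Prodh and −0.43 to 0.32 for Prodh2. In limma on log2(TPM + 1) Prodh was called higher. Of 5 other proline genes 4 fell, among them Hoga1, the last enzyme of hydroxyproline breakdown (−1.23 ± 0.08), and Pycrl (−0.88 ± 0.07). In pyrimidine breakdown Dpys, dihydropyrimidinase, was at 1.49, 1.48 and 1.03 CPM in OE and 2.73, 2.02 and 3.70 CPM in GFP, a fall of 2.09-fold at a low level. Upb1, beta-ureidopropionase, the next enzyme, was at 24.4, 23.9 and 24.2 CPM in OE and 18.5, 19.5 and 19.8 CPM in GFP, a rise of 1.25-fold. The pair went opposite ways without overlap, beside 44.1% of all genes tested with OE libraries all above GFP and 42.9% all below. Dpyd, the first enzyme of the chain (−2.54 ± 0.05), and Abat (−0.55 ± 0.06) fell. For lysine, which none of the 31 genes covers, Aldh7a1 (−1.36 ± 0.03) and Aass (−0.30 ± 0.06) fell and the other of 3 genes was not called. In TPM the groups of Aass overlapped, at 14.5 to 15.7 TPM in OE and 14.2 to 15.2 TPM in GFP.

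**Figure D4:**
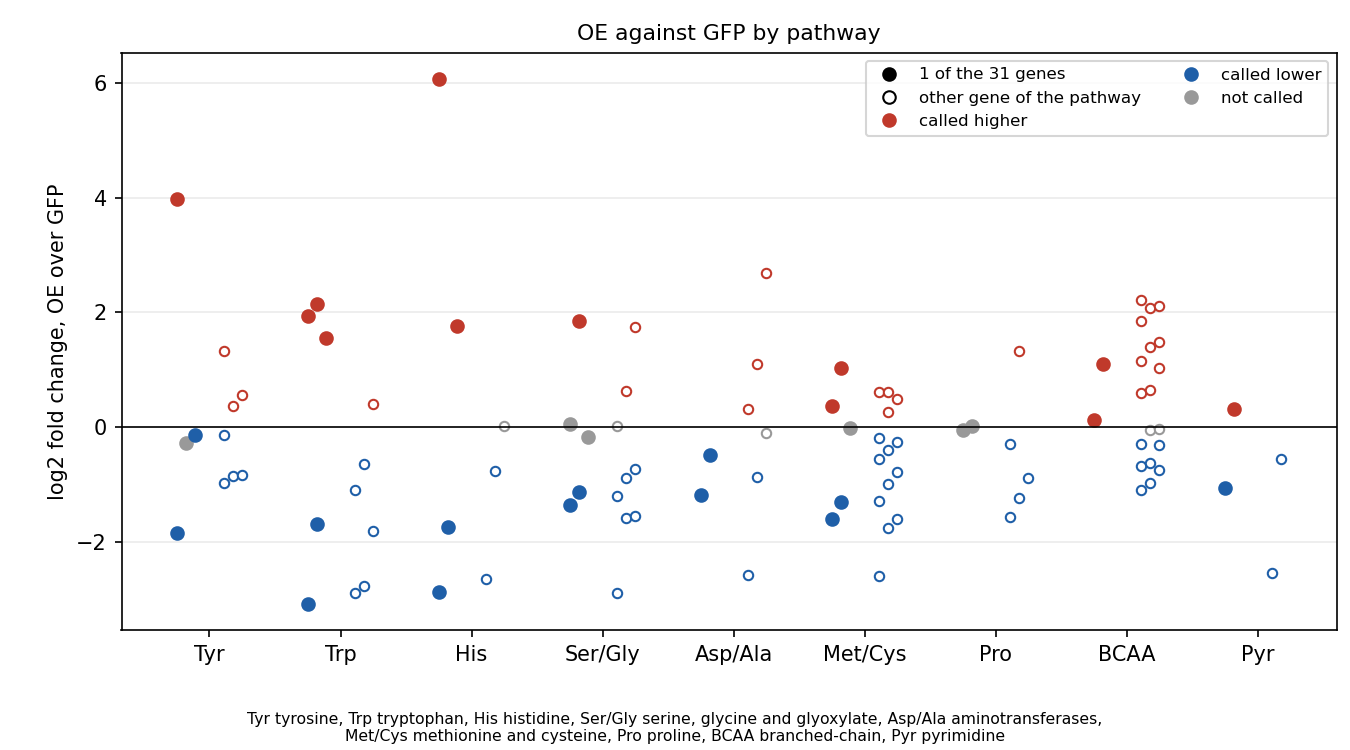
Log2 fold change in OE over GFP (vertical) by pathway (horizontal) for the 31 genes (filled) and 71 other tested genes of the same 9 pathways (open), coloured by the call in edgeR. Both rises and falls of the 31 genes were called in 6 of the 9 pathways, with Hal at 6.07 and Kmo at −3.08 as the ends of the range.

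Hgd and Cth were the 2 genes called in both comparisons, each lower in KO and higher in OE. Most genes tested were called in OE against GFP, 43.9% higher and 42.7% lower. The share of all genes with each joint outcome was not computed. The counts across both comparisons given here therefore do not show a trait of these genes. Of the 31 genes 15 had log2 fold changes of opposite sign in KO over WT and OE over GFP and 16 had the same sign, and across genes, which are not independent replicates, Pearson's r was −0.29 and Spearman's rho −0.30. Of the 8 genes with all KO libraries below WT, 4 were called higher in OE (Hgd, Kynu, Haao and Cth), 2 were called lower (Got1 and Dpys) and 2 were not called (Hpd and Amt). Of the 3 with all KO libraries above WT, Amdhd1 and Agxt were called higher in OE and Uroc1 lower. Hal, with the largest rise in OE, was at 310, 204 and 238 CPM in KO and 405, 282 and 378 CPM in WT, ranges that overlapped (log2 fold change −0.50 ± 0.20, adjusted p = 0.331). Kmo, with the largest fall in OE, was at 286, 287 and 325 CPM in KO and 258, 345 and 271 CPM in WT (log2 fold change 0.04 ± 0.14).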

How the data were processed

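Stranded libraries were made from poly(A) RNA. Per the labels, the authors' pipeline named Trimmomatic 0.36, STAR 2.5.1, Picard 1.84, RSEM 1.2.22, DESeq2 and the build mm10. The deposited tables hold expected counts, which are estimated reads per gene with no scaling, and TPM, which the authors' software scaled for gene length and depth. The strand setting of the counting is not given in the sources used here. Of the 31 genes 3 overlap an annotated gene on their own strand and 11 only on the other.

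Rounded expected counts were tested with edgeR 4.0.16 (filterByExpr, minimum count 10 and total 15; TMM; quasi-likelihood F test; Benjamini-Hochberg adjustment over all genes tested) within the 6 libraries of each comparison, with calls at an adjusted p under 0.05. The SE is the log2 fold change over the root of F. Intervals are the log2 fold change ± 1.96 SE, which is narrower than an interval based on the F test. For Sdsl in KO it ran between 0.02 and 1.18 at an unadjusted p of 0.0823. Tried besides were DESeq2 1.42.0, RLE factors, library totals, filters that were absent or stricter (CPM of 1 in 3 libraries and 5 on average), limma 3.58.1 on log2(TPM + 1) and log2(TPM + 0.1) where TPM averaged 1 or more, 12 libraries fitted together, replicate number as a block, and each library left out in turn. Of 78 other genes of the pathways, those named are up to 3 per pathway with the lowest p among calls, and some of these are not reported here. All lists were chosen with earlier results of these data known. Coordinates are from GENCODE M21.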

Additional observations from a re-analysis of the deposited data

How the results depend on the processing

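In KO against WT, 203 genes were called, against 625 in DESeq2, 324 with no filter, 91 under the stricter filter, 112 and 103 in the limma fits on log2(TPM + 1) and log2(TPM + 0.1), 1205 in the fit of all 12 libraries, 87 with the replicate block and 42 to 396 without 1 library. Of the 31 genes 2 were called lower, against 7 in DESeq2, 1 under the stricter filter, 1 in both limma fits, 7 in the fit of all 12 libraries, 0 with the replicate block and 0 to 4 without 1 library. In DESeq2 and in the fit of all 12 libraries the 7 were Hpd, Hgd, Kynu, Haao, Amt, Got1 and Cth. None of the 31 was called higher in KO in any alternative. In OE against GFP, 10 to 16 genes were called higher and 10 to 14 lower over the alternatives. The replicate number is not said to mark a shared mouse or day, so the numbers were not taken as pairs. Deviations of same-numbered libraries from their group means had r between −0.37 and 0.02 in KO and WT. In OE and GFP r was between −0.06 and 0.05. With 3 libraries a group, these values cannot settle whether the libraries were paired. With the replicate block 12 genes were called higher and 14 lower in OE.

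The median log2 fold change of all genes in OE over GFP was 0.01 with TMM, 0.15 with library totals, 0.11 in DESeq2, 0.27 in limma on log2(TPM + 1) and 0.30 on log2(TPM + 0.1), and 63.4% and 63.5% of calls in the limma fits were higher, against 50.7%. In KO over WT 28.6% and 29.1% of the limma calls were higher, against 40.4%. Signs turned for genes near 0. With library totals the log2 fold changes were −0.005 for Kmo and −0.017 for Bckdha in KO, and 0.119 for Gnmt, 0.002 for Fah and 0.082 for Prodh2 in OE. In limma Bckdha was at −0.009 in KO in both fits, and in OE Gnmt was at 0.278 and 0.295, Fah at 0.178 and 0.18, Prodh2 at 0.228 and 0.311 and Sdsl at 0.065 and 0.067. Gnmt was at 0.007 with RLE factors, 0.013 in DESeq2 and 0.022 under the stricter filter. Without 1 library, the ranges in KO were −0.014 to 0.056 for Bckdha, −0.706 to 0.291 for Mat1a, −0.531 to 0.104 for Bhmt, −0.571 to 0.27 for Tat, −0.046 to 0.172 for Kmo, −0.258 to 0.084 for Gldc and −0.235 to 0.011 for Prodh2, and in OE −0.06 to 0.028 for Gnmt, −0.134 to 0.037 for Prodh2 and −0.031 to 0.067 for Prodh. The causes were not tested.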
